A study of Mus musculus with 8 samples.

Results

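In RNA of mouse platelets 10 genes were followed, 8 of them known from fat cells (Adipoq, Cfd, Plin1, Fabp4, Lpl, Cidec, Apmap and Pnpla2) and the others Cdo1 and Car3, out of 55487 genes in the tables and 18462 with a count in any library. The 8 were named as adipocyte markers, with their levels in these libraries already known. Cdo1 and Car3 were selected on their counts here, which were low in the libraries labelled Dnmt3a+/-, so their difference between the labels is given as a description, with no p-value. The question is how these genes were spread over the libraries, and whether Cdo1 and Car3 went along with Adipoq, a transcript of fat cells, or with Alb, serum albumin, a transcript of liver.

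Each of the 8 libraries came from the blood platelets of 1 male mouse aged 13 weeks, with 4 labelled WT (wild type) and 4 labelled Dnmt3a+/- (heterozygous for Dnmt3a, the gene of a DNA methyltransferase). Blood was taken by heart puncture, and beads against Ter119 (red cells) and CD45 (leukocytes) were used to deplete other blood cells. The mice were littermates, and the kind of mutant allele and the cells that carry it are not given in the sources used here.

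Total counts ran from 15185218 to 22160394 per library. Platelet transcripts were abundant in every library, with 9 platelet markers at a summed 37440 to 47090 CPM (counts per 1000000 counts, scaled by TMM factors). Dnmt3a itself was at 18.2 to 22.1 CPM in the WT libraries and 9.96 to 24.2 in the others, where 2 libraries were below all WT values and 2 were not, so groups are named by their labels. WT replicate 1 stood apart in red cell transcripts, with 8 markers at 20720 CPM against 2006 to 5006 in the other 7 libraries.

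White fat cells store triglyceride in a single large droplet and release it as fatty acids. The droplet is coated by perilipin 1 (Plin1) and enlarged by Cidec, and the lipase encoded by Pnpla2 starts the release. Lpl frees fatty acids from blood lipoproteins, Fabp4 carries them inside the cell, and adiponectin (Adipoq) and complement factor D (Cfd, adipsin) are secreted into the blood. Cdo1, cysteine dioxygenase, begins the breakdown of cysteine towards taurine and sulphate and is known from liver and fat. Car3, a cytosolic carbonic anhydrase, is known from fat, liver and slow skeletal muscle.

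The upstream regions of 3 of these genes show how unlike their promoters are in CpG, the dinucleotide that DNA methyltransferases act on. The 3 were chosen with their levels known: Adipoq and Cfd were scarce and uneven here and Pnpla2 was abundant and even. Methylation was not measured in these libraries. RefSeq tables for GRCm38.p6 gave a promoter for 6 of the 10 genes, and none for Cdo1, Car3, Fabp4 and Lpl. The 250 bases before the RefSeq start site are printed 5′ to 3′ on the gene's strand, with each CpG in capitals. The intervals are chr16:23146286-23146535 (plus strand) for Adipoq, chr10:79890603-79890852 (plus strand) for Cfd and chr7:141454938-141455187 (plus strand) for Pnpla2.
Adipoq: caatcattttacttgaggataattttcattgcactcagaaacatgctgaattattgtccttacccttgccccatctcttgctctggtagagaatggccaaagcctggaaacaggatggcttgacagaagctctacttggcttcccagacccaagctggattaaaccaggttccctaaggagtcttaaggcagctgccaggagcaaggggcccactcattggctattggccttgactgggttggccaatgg
Cfd: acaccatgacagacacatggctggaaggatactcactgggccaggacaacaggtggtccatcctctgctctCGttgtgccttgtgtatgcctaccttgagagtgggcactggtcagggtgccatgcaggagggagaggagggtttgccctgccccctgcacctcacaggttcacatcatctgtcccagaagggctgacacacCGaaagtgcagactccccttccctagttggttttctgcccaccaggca
Pnpla2: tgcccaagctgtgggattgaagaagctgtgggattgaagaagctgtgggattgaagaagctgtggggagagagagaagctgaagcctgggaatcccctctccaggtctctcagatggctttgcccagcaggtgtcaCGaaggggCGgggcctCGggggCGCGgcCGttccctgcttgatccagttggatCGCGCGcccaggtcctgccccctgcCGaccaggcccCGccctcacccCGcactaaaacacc

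The Adipoq region held 0 CpG and the Cfd region 2, against 12 in Pnpla2. Of 32841 promoter regions of this length in the table, 7.86% had as few CpG as Adipoq, 29.0% had at most as many as Cfd and 68.5% had at most as many as Pnpla2 (median 6). The 2 listed starts of Cidec, also scarce and uneven here, held 4 and 6, and Apmap 8. The Cidec region with 6 lies wholly within the GENCODE span of the gene. Plin1 held 1, but its RefSeq start lies inside the GENCODE span of the gene, so that region is partly within the gene and is not printed. These counts describe sequence only, and a link between CpG and the levels of these genes was not tested.

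Per transcript length, the genes covered a wide range of levels in the WT libraries. On the TPM scale (transcripts per 1000000, corrected for gene length) Pnpla2 was highest at 28.8 ± 5.91, followed by Fabp4 at 17.8 ± 6.22, Car3 at 9.97 ± 4.95 and Cdo1 at 3.26 ± 1.19 (SD, n = 4). Then came Cfd at 2.16 ± 2.30, Lpl at 1.25 ± 0.997, Adipoq at 1.04 ± 1.01, Cidec at 0.58 ± 0.40, Apmap at 0.49 ± 0.16 and Plin1 at 0.34 ± 0.23. From Cfd down, neighbours in this order differed by less than their spread. Adipoq and Cfd, which fat cells secrete in quantity, were thus below Pnpla2 and Fabp4 in these libraries.

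**Figure D1:**
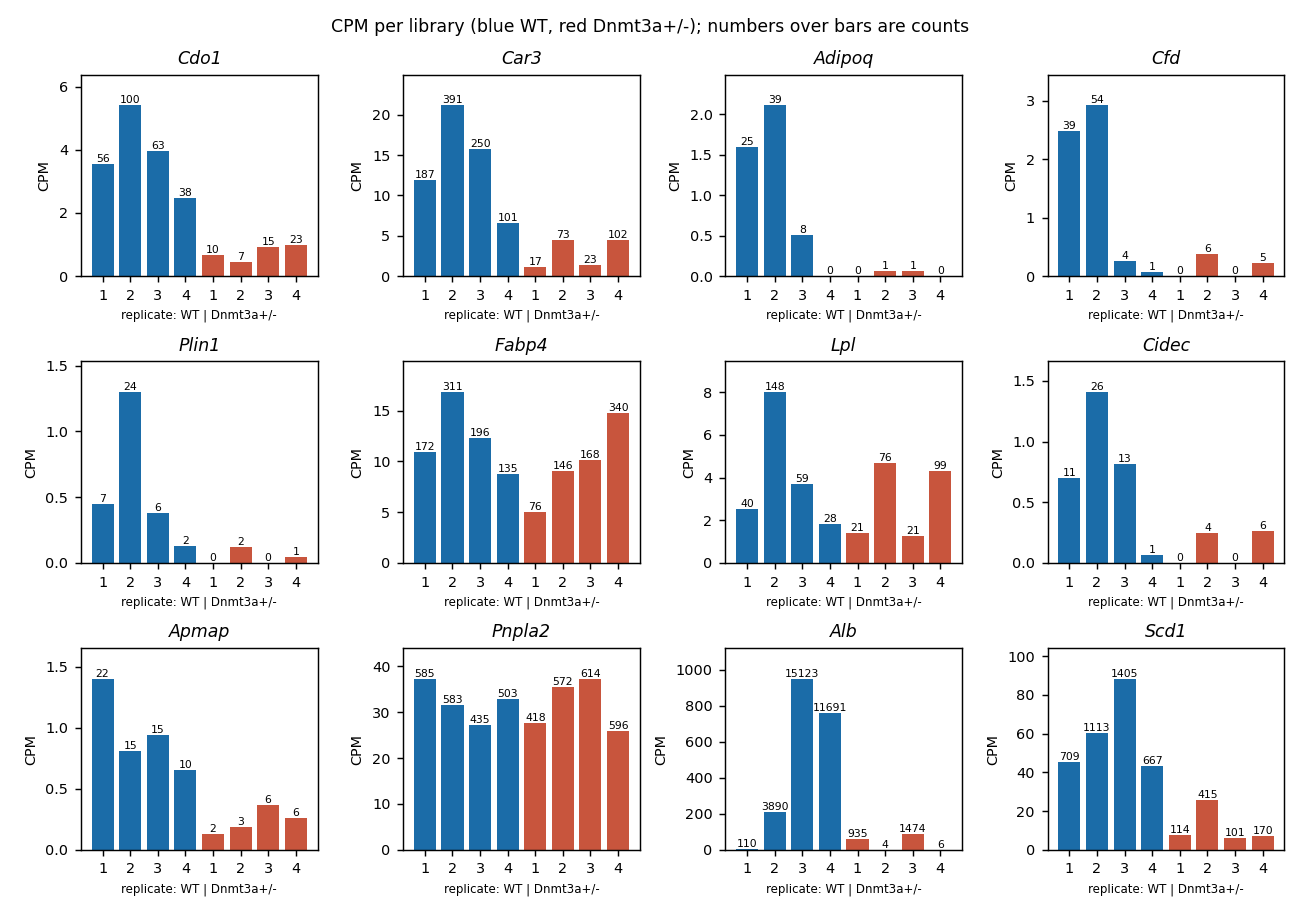
Level of each gene in each library, in CPM (bars, axes from 0), for WT replicates 1 to 4 in blue and Dnmt3a+/- replicates 1 to 4 in red, with the counts over the bars. Alb and Scd1 are shown for comparison; Adipoq had 25 and 39 counts in WT replicates 1 and 2 and at most 8 in any other library, while Alb had 15123 and 11691 in WT replicates 3 and 4.

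Transcripts of Adipoq and Cfd, which encode secreted proteins of fat cells, were found mainly in 2 libraries. Adipoq (ENSMUSG00000022878, chromosome 16, 23146536 to 23158028, plus strand, GRCm38) had 25, 39, 8 and 0 counts in the WT libraries (replicates 1 to 4, in this order throughout). The heterozygous-labelled libraries had 0, 1, 1 and 0. That is 1.59, 2.11, 0.50 and 0 CPM against 0 to 0.06. A count of 0 still allows up to 3 counts in a library. WT replicate 4 lay within the range of the other label, so the labels overlapped. Cfd (ENSMUSG00000061780, chromosome 10, 79890853 to 79892655, plus strand) had 39, 54, 4 and 1 counts in WT and 0, 6, 0 and 5 in the other group. WT replicates 1 and 2 gave 86.5% of all Adipoq counts and 85.3% of all Cfd counts, and the 2 remaining WT libraries held no more Cfd than Dnmt3a+/- replicate 2.

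The transcripts of the droplet proteins Plin1 and Cidec had the same lead library. Plin1 (ENSMUSG00000030546, chromosome 7, 79720218 to 79732903, minus strand) had 7, 24, 6 and 2 counts in WT and 0, 2, 0 and 1 in the other group. The labels barely separated: its lowest WT value, 0.13 CPM, and the highest of the other group, 0.12, came from 2 counts each. Cidec (ENSMUSG00000030278, chromosome 6, 113424634 to 113435760, minus strand) had 11, 26, 13 and 1 counts against 0, 4, 0 and 6. WT replicate 2 was highest for all 4 of Adipoq, Cfd, Plin1 and Cidec, and WT replicate 4 was the lowest WT library for each. Summed over these 4 genes, the libraries held 82, 143, 31 and 4 counts in WT and 0, 13, 1 and 12 in the other group.

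These 4 genes were below the filter on low counts. The filter asked for 0.613 CPM in 4 libraries, which Adipoq and Cfd reached in 2, Plin1 in 1 and Cidec in 3, all of them WT. No fold change is given for them. In these bulk samples fewer cells of a type and less RNA per cell cannot be told apart.

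Lpl and Fabp4 had higher counts in every library, and their labels overlapped. Lpl (ENSMUSG00000015568, chromosome 8, 68880491 to 68907448, plus strand) had 40, 148, 59 and 28 counts in WT and 21, 76, 21 and 99 in the other group. This is 2.55, 8.01, 3.70 and 1.83 CPM against 1.39, 4.71, 1.27 and 4.30. Its log2 fold change (Dnmt3a+/- minus WT) was -0.46 (SE 0.52, edgeR adjusted p = 0.998), smaller than the spread within a label, and was 0.13 without WT replicate 2. Fabp4 (ENSMUSG00000062515, chromosome 3, 10204088 to 10208576, minus strand) was at 10.96, 16.8, 12.3 and 8.80 CPM in WT and 5.01, 9.04, 10.2 and 14.8 in the other group. Its log2 fold change was -0.32 (SE 0.29, edgeR adjusted p = 0.998). Dnmt3a+/- replicate 4, with 0 counts of Adipoq, held 340 counts of Fabp4, the most of any library, and its CPM was second to WT replicate 2.

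Both genes are also known from cells other than fat cells, Fabp4 from capillary endothelium and both from macrophages. In the libraries labelled Dnmt3a+/-, Lpl was high in replicates 2 and 4, and so were most of the 9 monocyte and macrophage markers. Csf1r, the receptor for the macrophage growth factor, had 18, 58, 13 and 61 counts there, and Adgre1 (F4/80) had 11, 63, 11 and 69. Cd68 had 11, 37, 6 and 46, Mrc1 15, 55, 23 and 100, and Cd14 6, 14, 1 and 25. Ly6c2 and Marco, at few counts, were also higher in replicates 2 and 4. Lyz2 and Ccr2 did not share this. Lyz2, lysozyme, was at 5366, 3342, 3674 and 3774 CPM, highest in replicate 1 and lowest in replicate 2. Ccr2 had 2, 1, 1 and 8 counts. In WT Csf1r had 11, 51, 21 and 18 counts, highest in replicate 2 like Lpl, while Adgre1 was flat at 27, 30, 23 and 23. The 9 monocyte and macrophage markers, nearly all of it Lyz2, summed to 3579 to 6604 CPM over WT libraries, against 3357 to 5371. Of these 9, edgeR tested 5, with 0 past the threshold and 0 at an unadjusted p under 0.05. Car3 was also higher in Dnmt3a+/- replicates 2 and 4 than in 1 and 3. The 8 endothelial markers summed to 21.1 to 32.6 CPM over WT libraries, against 20.5 to 24.6. The part of these cells in the Lpl, Fabp4 and Car3 counts was not tested.

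Pnpla2 (ENSMUSG00000025509, chromosome 7, 141455198 to 141460743, plus strand) was even across libraries. It was at 37.3, 31.6, 27.3 and 32.8 CPM in WT and 27.6, 35.4, 37.2 and 25.9 in the other group, from 418 to 614 counts. Its log2 fold change was -0.03 (SE 0.15, edgeR adjusted p = 0.998) and took the other sign in some settings, among them 0.20 with limma on TPM. The library with the most Adipoq, WT replicate 2, was in the middle of the Pnpla2 range. Abhd5, the co-activator of this lipase, was likewise present in every library, at 101 to 292 counts. Its log2 fold change was 0.21 (SE 0.25, edgeR adjusted p = 0.998).

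Apmap (ENSMUSG00000033096, chromosome 2, 150583080 to 150608567, minus strand) encodes a membrane protein of adipocytes that is also found in liver. It had 22, 15, 15 and 10 counts in WT and 2, 3, 6 and 6 in the other group. This is 1.40, 0.81, 0.94 and 0.65 CPM against 0.13, 0.19, 0.36 and 0.26, and the labels did not overlap. Its log2 fold change was -1.96 (SE 0.43, edgeR adjusted p = 0.647), so it did not pass, and it was -0.64 with limma on log2(TPM + 0.5). Apmap reached the filter in 4 WT libraries and in 0 of the others, so it was tested only through the label where it was high. Unlike Adipoq and Cfd, Apmap was kept in WT replicate 4. Gm14123, a transcript annotated on the opposite strand within the Apmap span, had 0 counts in every library.

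Cdo1 and Car3 were lower in every library labelled Dnmt3a+/- than in any WT library. Cdo1 (ENSMUSG00000033022, chromosome 18) had 56, 100, 63 and 38 counts in WT and 10, 7, 15 and 23 in the other group. This is 3.57, 5.41, 3.95 and 2.48 CPM against 0.66, 0.43, 0.91 and 0.998, a log2 fold change of -2.33 (SE 0.32). The lowest WT library, replicate 4, was well above the highest of the other label. Car3 (ENSMUSG00000027559, chromosome 3, 14863512 to 14872523, plus strand) had 187, 391, 250 and 101 counts in WT and 17, 73, 23 and 102 in the other group. This is 11.9, 21.2, 15.7 and 6.59 CPM against 1.121, 4.52, 1.40 and 4.43, a log2 fold change of -2.25 (SE 0.47). The gap was narrow for Car3, between WT replicate 4 and Dnmt3a+/- replicates 2 and 4.

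**Figure D2:**
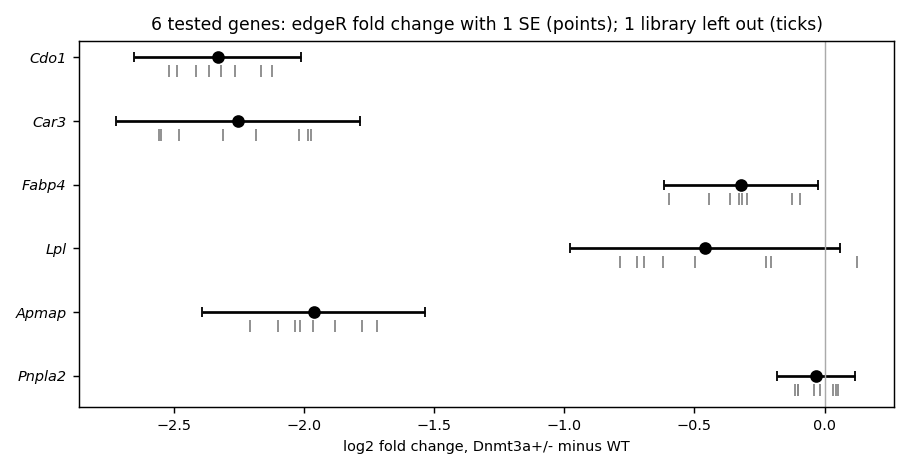
Log2 fold changes of the 6 genes with enough counts to be fitted, libraries labelled Dnmt3a+/- minus WT, from edgeR over all genes (points, with 1 SE) and with 1 library left out at a time (ticks). Cdo1, Car3 and Apmap lie between -2.33 and -1.96, while Fabp4, Lpl and Pnpla2 lie between -0.46 and -0.03.

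Of the 8 adipocyte markers, 4 were tested and 4 were below the filter. The edgeR test called 0 of the 4, and 0% of 7362 genes. At an unadjusted p under 0.05, 1 of the 4 was lower (Apmap) and 0 higher, where 3.19% of all genes tested were lower and 1.73% higher. For Apmap alone of the 4 were the CPM values of the libraries labelled Dnmt3a+/- below all 4 WT values, as for 1.17% of all genes tested. Apmap was kept only through its WT libraries, where it was high, so neither its p nor its separation counts as support. They were above all 4 for 0 of the 4 markers, and for 1.37% of all genes tested. DESeq2 called 0 of the 8 (0.0759% of genes called), limma on TPM 0 of 4 (0% called) and a robust edgeR fit 0 of 4 (0.0136%). Without a filter on low counts edgeR called 3 of the 8 (Adipoq, Cfd and Plin1, with 1.35% of genes called). It called 0 without WT replicate 1 (1.75%) and 0 without Dnmt3a+/- replicate 2 (0.013%). Cdo1 and Car3 are left out of these counts, since they were chosen with this contrast known.

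The library order of Cdo1 and Car3 was unlike that of Alb in WT, and for Cdo1 partly alike in the other group. In WT both genes were highest in replicate 2, then 3, 1 and 4, an order shared by Fabp4, Lpl and Cidec. Adipoq, Cfd and Plin1 ran 2, 1, 3 and 4 from high to low. Alb ran 3, 4, 2 and 1, at 949, 762, 210.5 and 7.01 CPM. In the other group Alb was at 61.7, 0.25, 89.4 and 0.26 CPM in replicates 1 to 4, while Car3 was highest in replicates 2 and 4, where Alb had 4 and 6 counts. Cdo1 ran 4, 3, 1 and 2 from high to low and Alb 3, 1, 4 and 2. Replicate 3, second for Cdo1, had the most Alb, and replicate 2 was lowest for both.

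A ratio of 2 genes within a library needs no scaling. The ratio of Cdo1 to Alb varied widely. Per Alb count there were 0.509, 0.0257, 0.00417 and 0.00325 Cdo1 counts in the 4 WT libraries. The exact 95% binomial limits were 0.362 to 0.709 in replicate 1 and 0.0023 to 0.00446 in replicate 4. For the other label the ratio was 0.0107, 1.75, 0.0102 and 3.83. These limits cover counting error only. WT replicate 1 kept 56 Cdo1 counts with 110 of Alb, and WT replicate 4 had 38 with 11691.

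Car3 showed the same against Alb. Its ratio was 1.70, 0.101, 0.0165 and 0.00864 in WT and 0.0182, 18.3, 0.0156 and 17.0 in the other group. The exact limits were 1.34 to 2.17 in WT replicate 1 and 7.55 to 47.4 in Dnmt3a+/- replicate 4. WT replicate 3 and Dnmt3a+/- replicates 1 and 3 had overlapping limits, and those of WT replicate 2, 0.0904 to 0.112, lay above all 3.

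Against Adipoq the ratios were nearer to each other, but few counts stood behind them. Cdo1 had 2.24, 2.56 and 7.88 counts per Adipoq count in WT replicates 1 to 3. In WT replicate 4 Adipoq had 0 counts, so only the exact lower limit of the ratio, 9.81, can be given. It lay above the limits of WT replicate 1, 1.38 to 3.75. These limits hold counting error alone, and replicate libraries as a whole differed by more than that (chi-square per degree of freedom over genes at least 10.7). In the libraries labelled Dnmt3a+/- Adipoq had at most 1 count, and the lower limits of the ratio were 0.899 to 5.75. Car3 had 7.48, 10.03 and 31.3 counts per Adipoq count in WT replicates 1 to 3. Its exact lower limits were 26.9 in WT replicate 4 and 27.15 in Dnmt3a+/- replicate 4, both with 0 Adipoq counts.

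**Figure D3:**
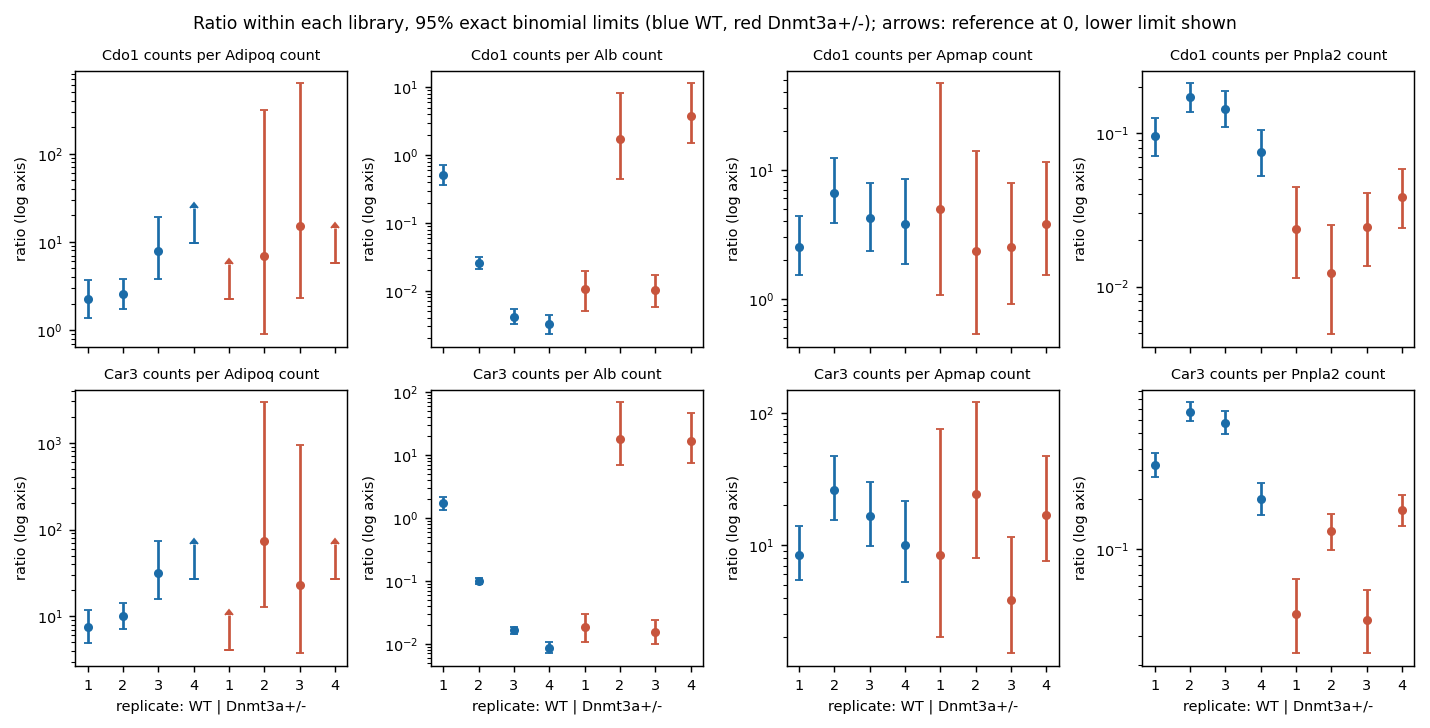
Counts of Cdo1 (top) and Car3 (bottom) per count of Adipoq, Alb, Apmap and Pnpla2 in each library (log axes), WT in blue and Dnmt3a+/- in red, with exact 95% binomial limits; an arrow starts at the lower limit where the reference had 0 counts. The ratios to Alb run over 3 orders of size, from 0.00325 to 3.83 for Cdo1, and those of Cdo1 to Apmap, from 2.33 to 6.67, have overlapping limits in all 8 libraries.

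The spread of the log2 ratio over all 8 libraries (0.5 counts added to each gene) puts these side by side. For Cdo1 its SD was 4.02 against Alb and 1.87 against Adipoq. It was 1.34 against Pnpla2, a gene that hardly varied, so the ratio to an even gene was steadier than either. For Car3 the SDs were 4.61, 1.81 and 1.55 in the same order. Against the sum of Adipoq, Cfd, Plin1 and Cidec they were 2.02 for Cdo1 and 1.40 for Car3, the latter below its SD to Pnpla2. Against the sum of 22 hepatocyte markers they were 2.83 and 3.36. That sum was mostly Apoh in Dnmt3a+/- replicates 2 and 4, where Alb had 4 and 6 counts. Where a reference itself varies widely this SD grows. Where the reference has 0 counts, as Adipoq in 3 libraries, the added count sets the ratio and can shorten the SD. For Cdo1 to Adipoq the SD was 1.47 with 1 count added and 2.70 on TPM with 0.01 added. The SD is thus a description of closeness and no test, and the SDs to Adipoq and to Alb are not on equal terms.

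Over all 8 libraries the log2 ratio of Car3 to Cdo1 had an SD of 0.85, below the SDs of both genes to Adipoq and to Alb. Both genes were selected as low in the libraries labelled Dnmt3a+/-, which by itself shortens this distance. Car3 had 3.34, 3.91, 3.97 and 2.66 counts per Cdo1 count in WT, with overlapping limits in all 4 libraries (SD of the log2 ratio 0.27). For the other label it had 1.70, 10.4, 1.53 and 4.43, and the SD was 1.27. Within that label the SDs to Adipoq were 1.38 for Cdo1 and 1.55 for Car3, but with at most 1 Adipoq count there they say little about Adipoq. Those to the sum of Adipoq, Cfd, Plin1 and Cidec were 2.37 and 1.17, so Car3 was no closer to Cdo1 than to this sum. Dnmt3a+/- replicate 2, with 73 counts of Car3 and 7 of Cdo1, had limits of 4.81 to 26.9, above those of replicate 1 (0.735 to 4.15) and replicate 3 (0.766 to 3.16).

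**Figure D4:**
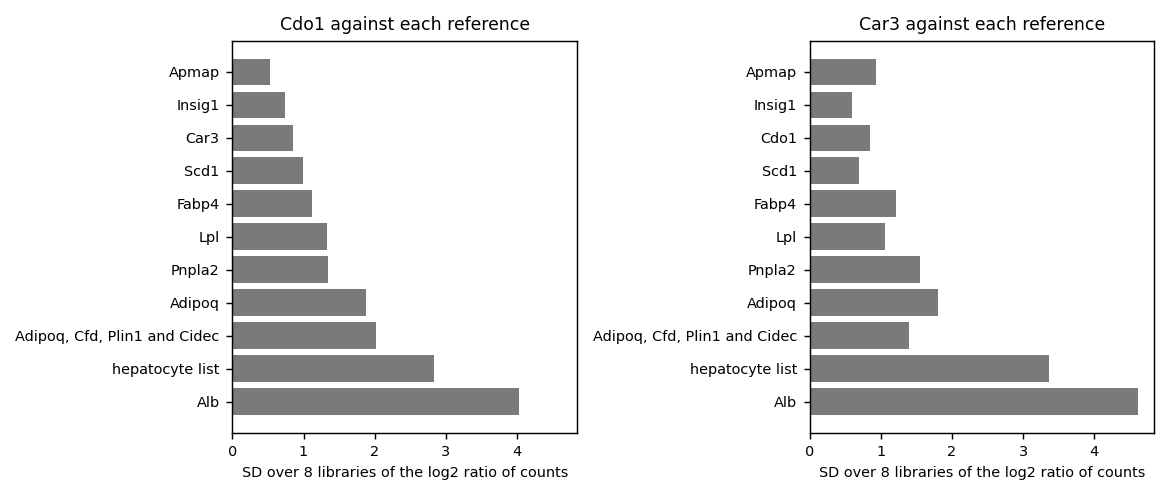
Standard deviation over the 8 libraries of the log2 ratio of Cdo1 (left) and Car3 (right) to each reference gene or summed list; a short bar means that the 2 kept a similar ratio. Alb gives the longest bar for both, at 4.02 and 4.61, and Apmap (0.53, for Cdo1) and Insig1 (0.59, for Car3) the shortest of those drawn.

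Among 6720 named genes ranked by this spread in log2 CPM, the nearest to Cdo1 was Apmap (SD 0.53). Next were Glo1, glyoxalase 1 (0.66), Sh3bp5, a binder of SH3 domains (0.68), Aldh6a1, a mitochondrial enzyme of valine breakdown (0.72), and Insig1, a regulator of sterol sensing (0.75). Car3 ranked 19th. The nearest to Car3 was Insig1 (0.59), then Scd1, stearoyl-CoA desaturase (0.69), Tgfbi, an extracellular matrix protein (0.78), Nucb2, nucleobindin 2 (0.80), and Slfn2, a schlafen family gene (0.82). Cdo1 ranked 11th for Car3. Alb ranked 6717th for both. Adipoq, Cfd, Plin1 and Cidec were below the filter and were not ranked, so the ranking cannot set Adipoq against Alb. Apmap was kept only through its WT libraries. All of the nearest genes were lower on average in the libraries labelled Dnmt3a+/-, from 59.3 to 11.7 CPM for Scd1 and from 1.79 to 0.56 for Insig1, and a shared difference between labels by itself shortens this distance.

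The other genes of fat cells were mostly scarce. Plin4, another droplet coat protein, had 12, 24, 4 and 2 counts in WT and 0, 5, 0 and 4 in the other group, much like Cfd. Lipe, the hormone-sensitive lipase, had 18, 18, 2 and 4 against 1, 7, 4 and 14. Retn, a secreted protein gene, had 6, 6, 5 and 2 against 0, 4, 0 and 0. Leptin (Lep) had 4 counts each in WT replicates 2 and 3 and 0 elsewhere, and Adrb3, the adrenergic receptor of fat, had 9 counts in WT replicate 2 and at most 1 elsewhere. Ucp1 and Cidea, which mark brown fat, had 0 counts in all 8 libraries. Summed over 12 adipocyte markers the level was 8.54, 12.2, 3.64 and 1.499 CPM in WT and 0.26, 2.17, 0.61 and 2.04 in the other group, so the labels overlapped.

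Of 14 genes of lipid droplets and lipolysis, edgeR tested 5 and 0 passed. The 4 that are not among the 10 genes had a median log2 fold change of -0.07, against -0.0046 for all other genes tested. Of these 4, 1 was lower at an unadjusted p under 0.05, where 3.19% of all genes tested were lower. It was Dgat2, an enzyme of triglyceride synthesis also active in liver, at -1.81 (SE 0.41, edgeR adjusted p = 0.647). The perilipin Plin2, known from many cell types, was at 0.04 (SE 0.14). Of 16 genes of fat cell transcription, insulin response and related roles, edgeR tested 5 and 0 passed. At an unadjusted p under 0.05, 2 of the 4 outside the 10 genes were lower, where 3.19% of all genes tested were lower. Gpd1, a glycerol phosphate dehydrogenase, was at -1.42 (SE 0.39) and Thrsp, a regulator of fat synthesis, at -2.03 (SE 0.63). Both had the same edgeR adjusted p, 0.647. Pparg, the main transcription factor of fat cells, had 12, 11, 11 and 11 counts in WT and 3, 4, 4 and 17 in the other group.

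Of 8 genes of fatty acid uptake, edgeR tested 5, with 0 past the threshold and 0 at an unadjusted p under 0.05. The 3 outside the 10 genes had a median of -0.56. Cd36, a fatty acid receptor that platelets also carry, was at -0.56 (SE 0.28, edgeR adjusted p = 0.988). Of 7 genes of secreted proteins edgeR tested 2 and 0 passed. At an unadjusted p under 0.05, 1 was lower, where 3.19% of all genes tested were lower. That was Rbp4, the retinol carrier made by liver and fat, at -3.24 (SE 0.98, edgeR adjusted p = 0.647). Its counts of 3, 47, 188 and 99 in WT and 15, 3, 18 and 1 in the other group ran in the library order of Alb in WT.

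Fold changes of the other genes of cysteine and taurine metabolism were near 0. Of the 14 listed, edgeR tested 7 and 0 passed. The 6 other than Cdo1 had 0 at an unadjusted p under 0.05 and a median log2 fold change of 0.03. Csad, which acts after Cdo1 in taurine synthesis, was at 0.09 (SE 0.26), and Slc6a6, the taurine transporter, at -0.05 (SE 0.13). Gclc and Gclm, which use cysteine for glutathione synthesis, were at 0.04 (SE 0.15) and 0.21 (SE 0.11), with Gss at -0.17 (SE 0.23) and Mpst at 0.01 (SE 0.26). Each of these had an edgeR adjusted p of 0.998 or 0.999. Csad, Gclc, Gclm, Gss, Mpst and Slc6a6 all had at least 41 counts in every library, while Cdo1 had 7 to 100.

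Of 16 carbonic anhydrases, edgeR tested 4 and 0 passed. Of the 3 tested other than Car3, 1 was lower at an unadjusted p under 0.05, where 3.19% of all genes tested were lower. It was Car8, a member without catalytic activity, with 5, 34, 28 and 12 counts in WT and 6, 9, 2 and 15 in the other group (log2 fold change -1.41, SE 0.58, edgeR adjusted p = 0.972). Car2, the red cell form, ran from 13 to 41 counts except for 333 in WT replicate 1, the library high in red cell transcripts (-1.81, SE 0.89, edgeR adjusted p = 0.987). Car5b, a mitochondrial form, was at -0.94 (SE 0.55, edgeR adjusted p = 0.998). Car6, Car9, Car10 and Car12 had 0 counts throughout.

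Markers of other tissues were set beside Cdo1 and Car3. Hepatocyte markers summed to 24.1 to 2264 CPM over WT libraries, against 5.21 to 177. The sums in Dnmt3a+/- replicates 2 and 4 were mostly Apoh, with 77 of 87 and 82 of 120 counts. Of 22, edgeR tested 19, with 0 past the threshold. At an unadjusted p under 0.05, 18 were lower, where 3.19% of all genes tested were lower. Within WT most of these 18 ran in the library order of Alb, so they are not separate observations. The smallest unadjusted p-values among them were those of Cyp2e1 (log2 fold change -4.19, SE 0.88) and Apoa2 (-4.21, SE 1.02), and the edgeR adjusted p was 0.647 for both. Within WT, replicate 1 was the lowest of the hepatocyte sums and replicate 3 the highest. Of the defining genes of skeletal muscle fibres, Myh4 and Myh7, the latter the myosin of slow fibres, had 0 counts in all 8 libraries, and Acta1 had 1 count in 1 library. Other genes of the muscle list were present. Mb, myoglobin, had 1, 3, 4 and 4 counts in WT and 20, 10, 3 and 14 in the other group. There the heart muscle markers Myl2 (28, 8, 0 and 21 counts) and Actc1 (16, 9, 2 and 26) were also lowest in replicate 3. The tissue behind the Mb counts was not tested. Atp2a1 and Pvalb had 7 to 26 and 3 to 17 counts. The muscle list as a whole summed to 9.25 to 11.5 CPM over WT libraries, against 7.80 to 10.4. This was mostly Mylpf, at 100 to 147 counts (log2 fold change -0.38, SE 0.15, edgeR adjusted p = 0.881).

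Connective tissue markers were spread over both labels. The 7 genes summed to 12.0, 30.1, 17.8 and 7.24 CPM in WT, the library order of Cdo1 and Car3, and to 15.4, 6.81, 1.82 and 23.3 in the other group. Dcn, decorin, had 69, 209, 142 and 58 counts in WT and 126, 47, 8 and 291 in the other group. Dnmt3a+/- replicates 1 and 4 were above WT replicate 4 in stroma markers, and had 10 and 23 counts of Cdo1 against 38. Heart muscle markers summed to 0.91 to 1.59 CPM over WT libraries, against 1.09 to 4.95. The part of hepatocyte, stroma, heart and fat RNA in the counts of Cdo1 and Car3 was not tested.

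**Figure D5:**
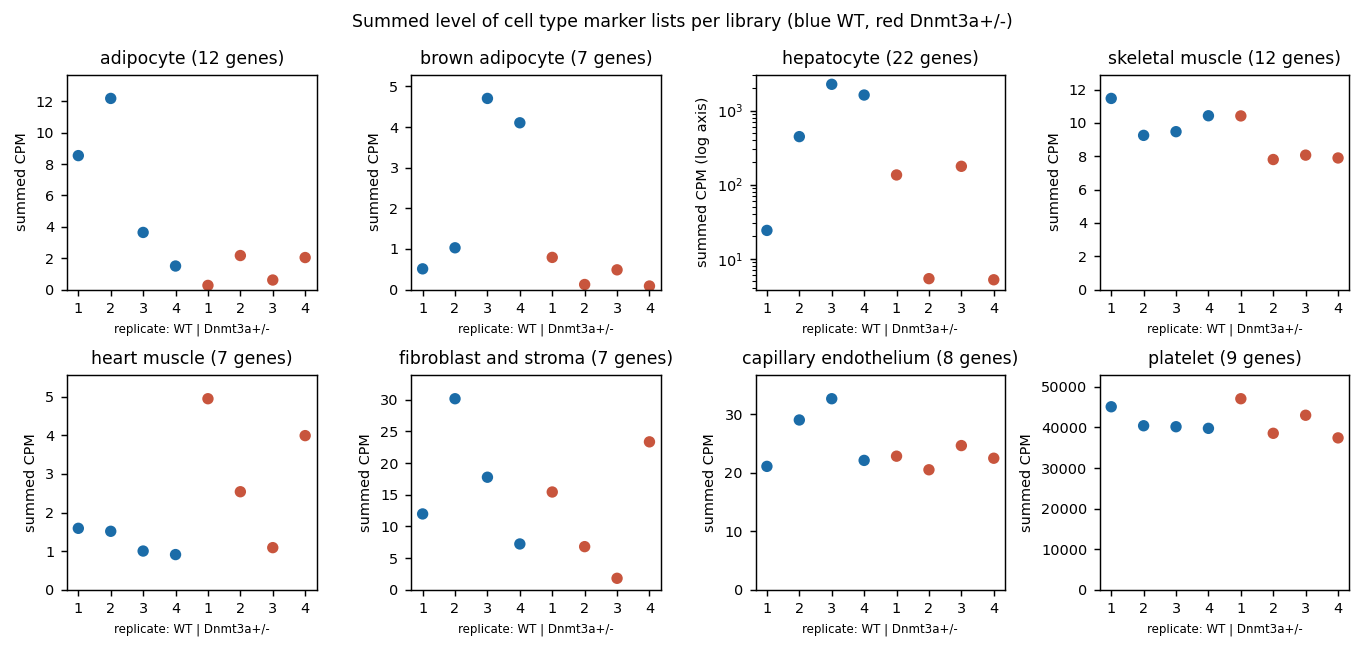
Summed CPM of fixed marker lists in each library (points), WT in blue and Dnmt3a+/- in red; all axes start at 0 except the hepatocyte axis, which is logarithmic. The adipocyte sum is highest in WT replicate 2 (12.2 CPM), the hepatocyte sum in WT replicate 3 (2264 CPM) and the stroma sum in WT replicate 2 (30.1 CPM), and the platelet sum stays between 37440 and 47090.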

How the data were processed

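RNA sequencing tables of 8 platelet libraries were used. Estimated counts, deposited by the authors as whole numbers, and TPM values, deposited by the authors and summing to about 1000000 per library, were read per gene. The build was mm10 and the tools listed were RSEM, STAR, DESeq2 and cutadapt, per the submitters' processing notes; versions, annotation release and strand setting are not given in the sources used here. Libraries were stranded polyA libraries per the labels' protocols. Counts were rounded (no change) and fitted with edgeR 4.0.16 in R 4.3.3 (TMM, filterByExpr by label with minimum count 10 and total 15, glmQLFit, glmQLFTest, Benjamini-Hochberg over 7362 genes, threshold 0.05). Standard errors came from the fold change and F. DESeq2 1.42.0 and limma 3.58.1 were alternatives, beside other factors, filters, 1 library left out, a replicate block, and for ratios other added counts, TPM and summed references. Replicates differed by more than sampling noise (chi-square per degree of freedom at least 10.7). The script was tested on simulated counts. Ratios used counts within a library, with Clopper-Pearson limits. Coordinates are from GENCODE M21 (GRCm38, also called mm10).

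The genes and lists were chosen with earlier results of these data known. Named genes were the 10 genes, Alb, the 5 nearest to Cdo1 and to Car3, in each list at most 2 genes a direction at an unadjusted p under 0.05, kept genes of the cysteine and carbonic anhydrase lists, and defining markers. Plin2, Abhd5 and Cd36 were added after their values were seen. Adipoq was not kept, so no nearest genes are given for it.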

Additional observations from a re-analysis of the deposited data

How the results depend on the processing

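The count of genes past the threshold was 0 with edgeR, RLE or upper-quartile factors, a strict filter, limma and the replicate block, 250 without a filter on low counts, 14 with DESeq2 and 1 with a robust edgeR fit, and it ranged from 0 to 135 with 1 library left out (135 without WT replicate 1). Counted with Cdo1 and Car3, which were chosen on this contrast and whose calls support nothing, 0 of the 10 genes passed, against 5 without a filter, 1 with DESeq2 and 1 with the robust fit, and 0 to 2 with 1 library left out (2 without WT replicate 1). Of the other listed genes 0 passed, and 29 without a filter, where 1.35% of all genes were called. Of these 29, 18 were hepatocyte markers and 5 red cell markers. The cause was not tested. The fold change of Lpl ranged from -0.79 to 0.13 and that of Pnpla2 from -0.115 to 0.053 with 1 library left out, and Pnpla2 was at 0.198 and 0.201 with limma on log2 TPM (0.5 or 0.1 added). Cdo1, Car3, Fabp4 and Apmap kept their sign in each fit that held them, but with limma Apmap moved from -1.96 to -0.64 (0.5 added to TPM) or -1.34 (0.1 added) and Cdo1 from -2.33 to -1.73 (0.5 added). Same-numbered libraries of the 2 labels shared only a number (correlations of deviations -0.126, 0.05, 0.206 and -0.213), and with the replicate block 0 genes passed, as without it. The SD of each log2 ratio to Adipoq and Alb stayed within 1.5 times its value in each alternative run: for Car3 to Adipoq it was 1.46 with 1 count added to each gene, 2.58 on TPM and 1.40 to the 4-gene sum, against 1.81. Depth limits Adipoq, Cfd, Plin1 and Cidec most, each with 0 counts in 2 or 3 libraries.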

Other observations

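Some ratios were steadier within 1 label than over all libraries. They were picked after all ratios had been seen, and the differences were not tested. Cdo1 had 0.326, 0.322, 0.321 and 0.282 counts per Fabp4 count in WT replicates 1 to 4 (SD of the log2 ratio 0.10). In the libraries labelled Dnmt3a+/- it had 0.132, 0.048, 0.0893 and 0.0677. Car3 had 0.81, 0.96, 1.10 and 1.03 counts per Lpl count in the libraries labelled Dnmt3a+/- (SD 0.18), although Lpl counts there ran from 21 to 99. In WT the ratio was 4.68, 2.64, 4.24 and 3.61. Counting error alone was wide beside these SDs. The exact 95% limits were 0.191 to 0.406 for Cdo1 per Fabp4 count in WT replicate 4. For Car3 per Lpl count they were 0.401 to 1.61 in Dnmt3a+/- replicate 1.

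Elovl3, a fatty acid elongase placed in the brown fat list, had 3, 16, 70 and 62 counts in WT and 8, 0, 8 and 0 in the other group. It gave most of that list's sum in WT replicates 3 and 4, where Alb was highest, while Ucp1 was at 0.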
